A study of Rattus norvegicus with 4 samples.

Results

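Histone-modifying enzymes were examined in the hippocampus of Wistar rat pups on postnatal day 1 after prenatal exposure to bisphenol A (BPA), a plastic monomer that binds estrogen receptors. A gene was included when its row carried a numeric gene ID and its symbol belonged to the Kdm, Kmt, Hdac, Sirt, Kat, Prmt, Setd, Suv39h, Ehmt or Ezh families, or was Eed, Suz12, Crebbp, Ep300, Ash1l, Nsd1 or Dot1l. This rule found 62 of 13984 genes with an ID. Of these, 61 were listed in all 4 libraries and 60 had a mean of at least 1 FPKM (fragments counted per kilobase of transcript model and corrected for library size) and entered the tests. Sirt7 was listed in the male files only, and Kdm4d lay below the filter at 0.40 to 0.55 FPKM. Suz12 and Ep300 had no row with a gene ID and are described with the newly assembled gene models.

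The groups were control and BPA-exposed males and control and BPA-exposed females, all Wistar pups with no genetic change named. Their dams were aged 10 weeks in the sample records and, by the study's methods, were bought at 8 weeks. The dams received BPA at 5000 µg/kg body weight or vehicle every day from gestational day 1 to birth. Each group was a single library made from a pool of 3 hippocampi, so no group has a replicate library. In the tests, the male and female library of a treatment stood as its 2 replicates, and the control and BPA library of a sex as the 2 replicates of that sex. Without a covariate, the p-values for BPA therefore rest on male to female differences, and those for sex on control to BPA differences. Variation between pools of the same group was not measured.

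Histone-modifying enzymes add or remove chemical groups on the histone tails around which DNA is wound. Lysine methyltransferases write marks that go with transcription (H3K4, H3K36 and H3K79 methylation) or with silencing (H3K9, H3K27 and H4K20 methylation), and lysine demethylases remove them. Acetyltransferases open chromatin, zinc-dependent histone deacetylases and NAD-dependent sirtuins reverse acetylation, and arginine methyltransferases modify histones and many RNA-binding proteins. In the brain around birth these enzymes govern the passage from dividing progenitor to neuron, and mutations in several of them (EHMT1, KDM5C, CREBBP, NSD1, KMT5B) cause human neurodevelopmental disorders.

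The libraries held about 8640000 to 8910000 fragments, as read from the steps between low values, and the enzymes were represented by a median of about 497 fragments per gene and library. Intervals given below for a ratio of 2 libraries are 95% intervals for counting error only, since fragments copied in PCR are not independent molecules and pools of other pups were not measured. Hippocampal neuron markers (10 of 10 genes) summed to 1878 and 1918 FPKM in the males (control, then BPA) and to 1647 and 1925 FPKM in the females. The female control library stood apart in markers of meninges and vessel wall (9 of 9 genes measured), which summed to 417 FPKM there and to 142 to 166 FPKM in the other libraries, and all 9 were higher in it than in female BPA. Choroid plexus markers (8 of 8 listed) summed to 277 and 718 FPKM in the males (control, then BPA) and to 19.5 and 53.3 FPKM in the females. Markers of dividing cells summed to 61.7 and 54.5 FPKM in the males and 65.8 and 57.5 FPKM in the females, in the same order. Those of radial glia and astrocytes summed to 1364 and 1230 FPKM in the males and 1350 and 1248 FPKM in the females. For the oligodendrocyte lineage the sums were 136 and 105 FPKM in the males and 111 and 94.0 FPKM in the females. Where 4 values follow each other below, their order is male control, male BPA, female control, female BPA, and where 2 are given for a sex the control comes first. In such bulk tissue, fewer cells of a type and less RNA per cell cannot be told apart. The part of these markers in the differences below was not tested.

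The enzymes were widely and steadily expressed. Over the 61 genes the median of the mean level was 18.9 FPKM, with 5 genes at 50 FPKM or more, 36 between 10 and 50 and 20 below 10. The highest library exceeded the lowest by a median of 1.2 times, and by at least 1.5 times in only 3 of the 61 (Kdm4c, Setd7 and Sirt4). Between any 2 libraries the median absolute log2 difference of the enzymes was 0.09 to 0.18, against 0.12 to 0.17 over all tested genes with an ID.

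The order of levels began with an arginine methyltransferase. Prmt1, the main asymmetric arginine methyltransferase of most cells, was the highest enzyme of all at 161, 162, 151 and 162 FPKM. In its class Prmt2 followed at 56.4 to 64.2 FPKM and Prmt5, the main symmetric arginine methyltransferase, at 35.5 to 40.6 FPKM. The lowest of the class were Prmt3 (15.4 to 18.5 FPKM), Prmt9 (8.25 to 9.42 FPKM) and Prmt6 (6.96 to 8.34 FPKM). Prmt8, which is known for its expression in brain, was at 18.7 to 21.3 FPKM.

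Among deacetylases, Hdac2, the class I enzyme that predominates in neurons, was at 93.0, 91.2, 93.5 and 102 FPKM, several times its close relative Hdac1 at 15.7, 15.5, 20.5 and 15.0 FPKM. Hdac3, the catalytic subunit of the NCoR complex, was at 46.0 to 48.8 FPKM. Of the class IIa enzymes, which shuttle between cytoplasm and nucleus, Hdac5 was at 36.6 to 47.6 FPKM, Hdac9 at 20.6 to 27.8 FPKM and Hdac4 at 6.03 to 6.97 FPKM. The remaining zinc enzymes were Hdac11 (10.3 to 13.2 FPKM), the polyamine deacetylase Hdac10 (7.26 to 9.77 FPKM) and X-linked Hdac8 (6.06 to 6.70 FPKM). Of the sirtuins, the mainly cytoplasmic tubulin deacetylase Sirt2 was highest at 49.95 to 61.5 FPKM, followed by the mitochondrial desuccinylase Sirt5 (36.7 to 51.1 FPKM), the nuclear Sirt6 (26.4 to 33.8 FPKM), the mitochondrial Sirt3 (15.6 to 17.7 FPKM) and the mitochondrial Sirt4 (2.2 to 3.49 FPKM). Sirt7, a nucleolar sirtuin, was listed at 0.01 FPKM in male control and 1.52 FPKM in male BPA. The row of Pcyt2 carries sirtuin-7 as its best protein match, at 18.4, 15.6, 17.9 and 12.6 FPKM, so the level of Sirt7 is uncertain in these files.

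Ehmt2 (G9a), which writes H3K9 dimethylation, was the highest lysine methyltransferase at 78.5, 78.1, 68.8 and 59.6 FPKM, followed by the actin histidine methyltransferase Setd3 (45.8 to 51.2 FPKM) and the H3K36 enzyme Nsd1 (32.0 to 36.9 FPKM). The lowest were Setd6 (4.93 to 6.12 FPKM), Setd7 (2.80 to 5.73 FPKM) and Suv39h2 (2.32 to 2.95 FPKM). The H3K36 enzyme Ash1l was at 13.5 to 16.2 FPKM and Dot1l, the only known H3K79 methyltransferase, at 7.95 to 10.9 FPKM. Demethylases were led by Kdm2b (44.3 to 49.2 FPKM), the flavin enzyme Kdm1a (39.4 to 47.0 FPKM) and Kdm4a (39.4 to 44.6 FPKM), and ended with Kdm5a (5.18 to 6.24 FPKM), Kdm8 (2.99 to 3.90 FPKM) and Kdm4d. Among acetyltransferases the order was Kat2a (31.5 to 38.2 FPKM), Kat7, Kat5, Kat8, Kat6a and Crebbp, which encodes CBP, at 7.0 to 8.51 FPKM.

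**Figure D1:**
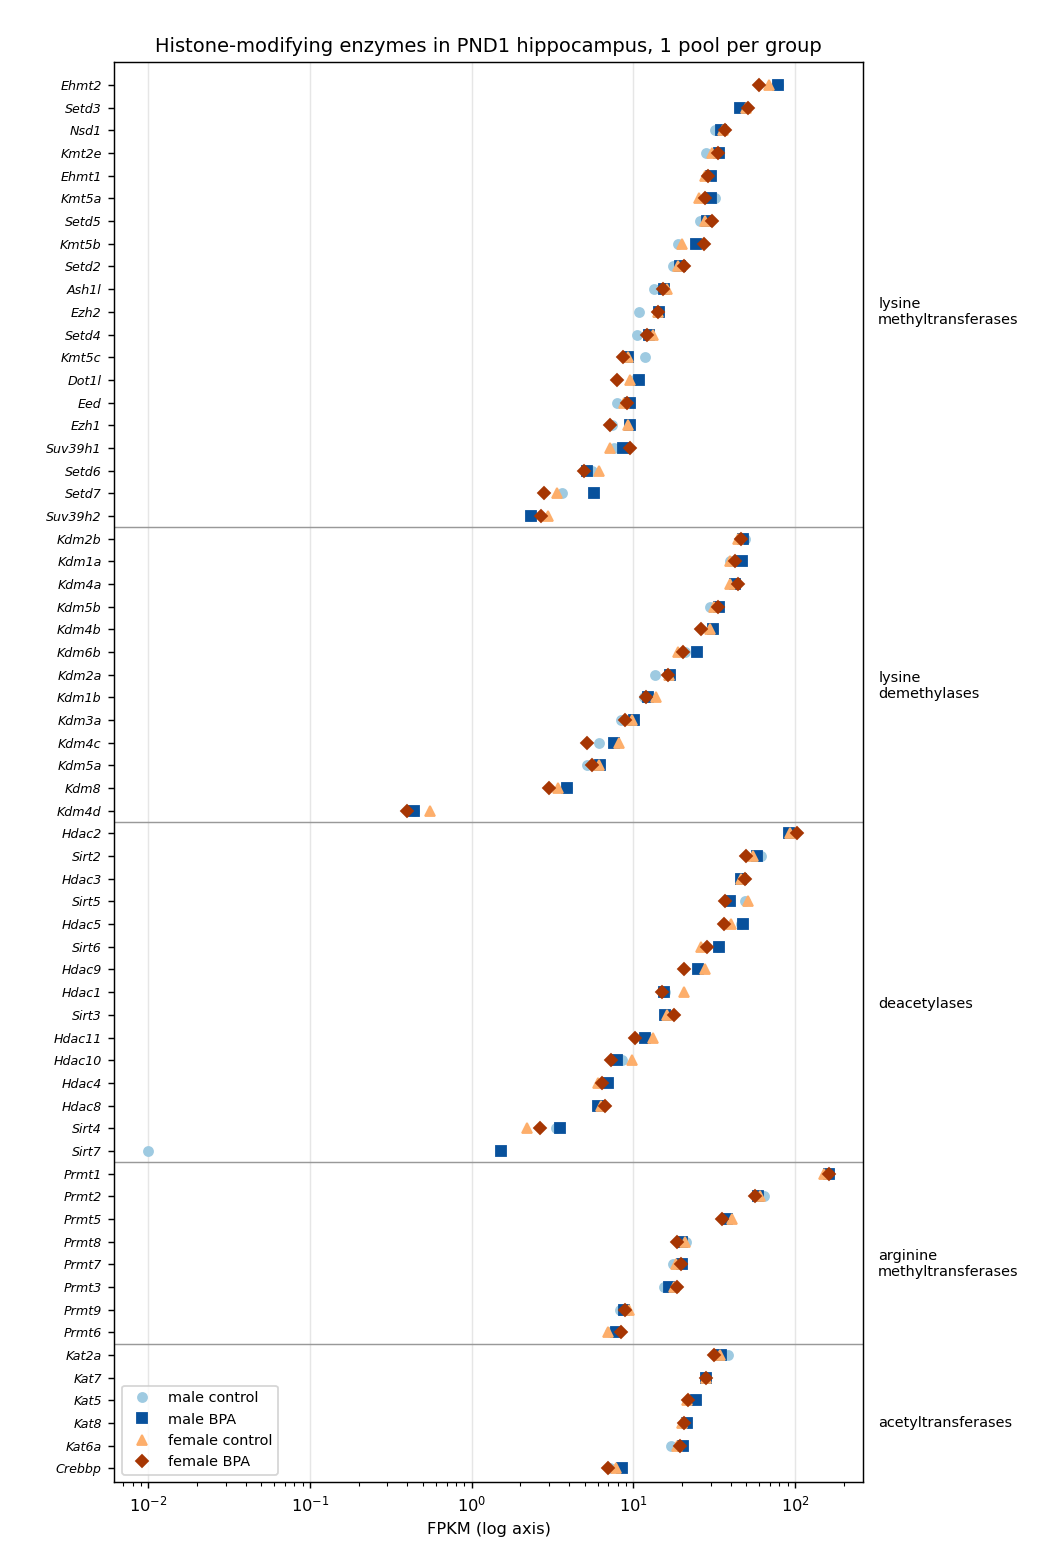
FPKM (log axis) of each enzyme in the 4 libraries, grouped by class and ordered by mean, 1 point per library. Points of a gene lie close together against the spread between genes, from Prmt1 at a mean of 159 FPKM to Kdm4d at 0.46 FPKM, and Sirt7 has male points only.

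The comparison of prenatal BPA with vehicle asks which enzymes differ in newborn hippocampus whatever the sex. No enzyme of 60 passed an adjusted p under 0.05 in limma with Benjamini-Hochberg adjustment over 13542 rows, where 0% of rows were called. At an unadjusted p under 0.05 there were 2 enzymes, Kmt5b and Sirt5, or 3.33% of 60, against 3.86% of 10857 tested genes with an ID. Both BPA libraries lay above both control libraries in 15 enzymes (25%, against 13.3% of genes with an ID) and below both in 10 (16.7%, against 20.2%). The median log2 fold change was 0.04 for the enzymes and -0.02 for all tested genes with an ID. By class it was 0.06 for lysine methyltransferases, 0.06 for demethylases, 0.03 for acetyltransferases, 0.03 for arginine methyltransferases and -0.01 for deacetylases.

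Kmt5b and Sirt5 had the lowest unadjusted p of the enzymes and are described first. Kmt5b (gene ID 361688) encodes SUV420H1, which adds the second methyl group to H4K20. The male values were 18.9 FPKM with vehicle and 24.6 with BPA, and the female values 20.1 and 27.4 FPKM. Both BPA libraries thus lay above both controls, by 1.3 times in males (interval 1.19 to 1.41) and 1.37 times in females (1.26 to 1.48). The log2 fold change was 0.39 (SE 0.12, limma unadjusted p 0.0121, adjusted p 0.973), on the log2(FPKM + 1) scale used for all differences here. Over all alternatives tried it was 0.32 to 0.47 with an adjusted p of 0.356 to 1.00.

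Sirt5 (gene ID 306840), which removes succinyl and other acidic acyl groups from lysines of metabolic enzymes, went the other way. Its male values were 49.1 FPKM with vehicle and 39.8 with BPA, and its female values 51.1 and 36.7 FPKM. Both BPA libraries lay below both controls, at 0.81 times the control in males (interval 0.72 to 0.91) and 0.72 times in females (0.64 to 0.81). The log2 fold change was -0.38 (SE 0.10, limma unadjusted p 0.00836, adjusted p 0.973), and -0.44 to -0.32 over all alternatives with an adjusted p of 0.329 to 1.00.

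Since these genes lead in opposite directions and BPA binds estrogen receptors, the 250 bases before their annotated starts are shown from RefSeq on GRCr8, a later assembly than the rn6 build of the files. Capitals mark TGACC or GGTCA, the 5-base core of an estrogen response element read on either strand (the letterings cannot overlap). The window of Ezh2, also searched, held 0 of them and is not shown.
Kmt5b, chr1:210429422-210429671, plus strand: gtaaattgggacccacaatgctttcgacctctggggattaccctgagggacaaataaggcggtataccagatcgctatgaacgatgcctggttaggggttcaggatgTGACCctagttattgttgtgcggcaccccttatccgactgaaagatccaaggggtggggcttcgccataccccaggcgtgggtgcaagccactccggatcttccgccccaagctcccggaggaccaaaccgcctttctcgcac
Sirt5, chr17:21543057-21543306, minus strand: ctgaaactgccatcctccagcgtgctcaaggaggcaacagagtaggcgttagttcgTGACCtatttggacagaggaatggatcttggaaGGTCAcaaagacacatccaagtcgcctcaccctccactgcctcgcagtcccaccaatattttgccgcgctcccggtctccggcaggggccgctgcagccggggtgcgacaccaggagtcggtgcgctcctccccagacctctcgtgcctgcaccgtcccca
The Kmt5b window holds 1 such core, starting 143 bases before the start of the gene, and the Sirt5 window holds 2, starting 194 and 161 bases before it. Such 5-base matches are common. They occur in 35.4% of 33469 promoters, in 32.3% of 9327 tested genes and in 20 of the 55 enzymes with a promoter in the table (36.4%). A match describes letters only and is no evidence of binding.

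The other H4K20 methyltransferases did not follow Kmt5b. Kmt5a (SET8), which adds the first methyl group, was at 31.8 and 30.1 FPKM in males and at 25.5 and 27.6 FPKM in females, with a further new model of the same protein not counted here. Kmt5c (SUV420H2), the closest relative of Kmt5b, was at 11.7, 9.20, 9.24 and 8.56 FPKM. Both BPA libraries of Kmt5c lay below both controls, by very little in the case of male BPA against female control. Its log2 fold change was -0.21 (SE 0.16, limma adjusted p 0.973). It was -0.05 without the male control library and -0.37 without the female control library.

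**Figure D2:**
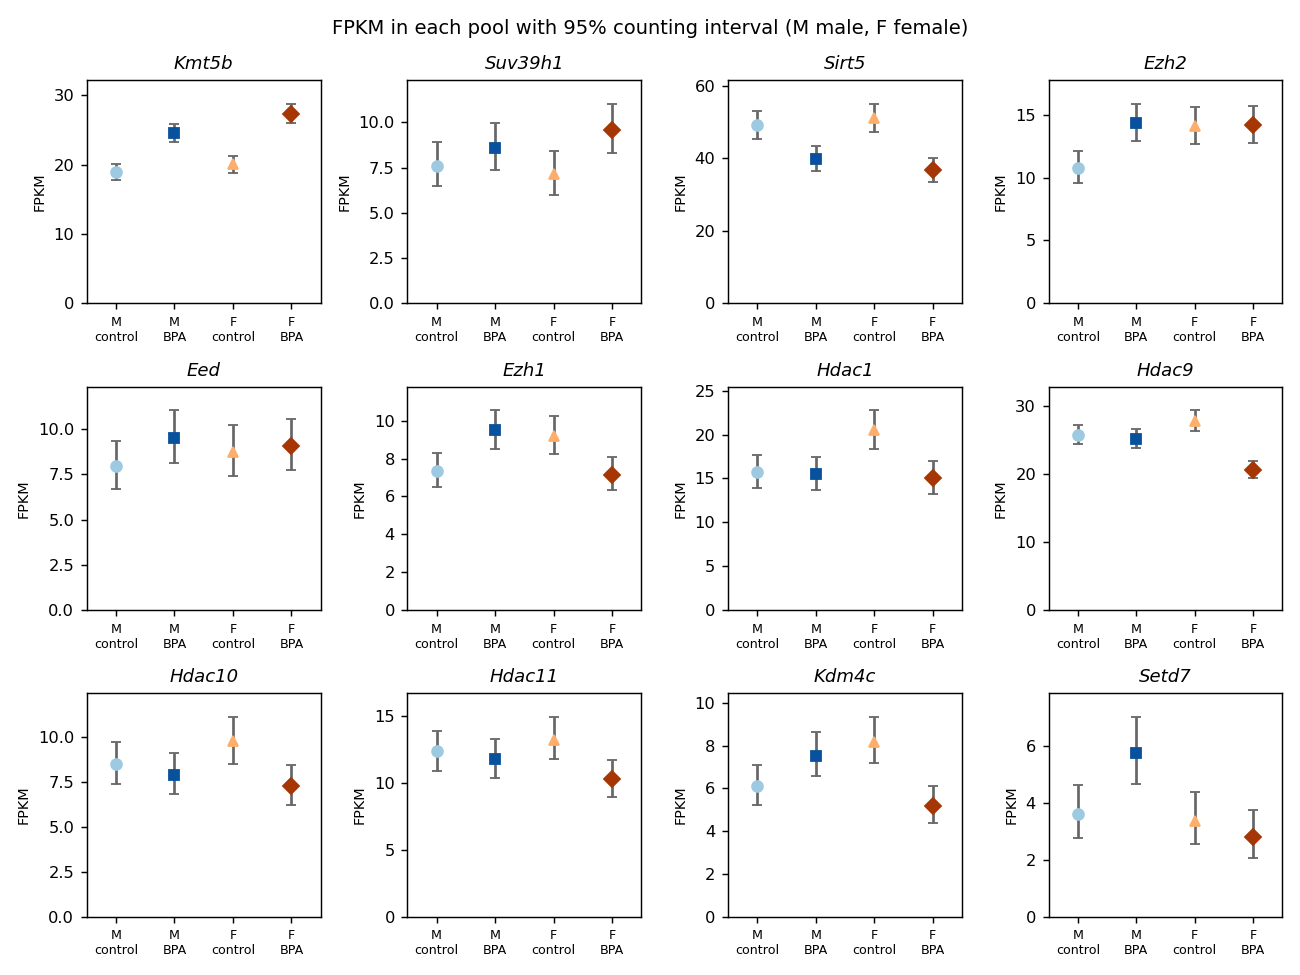
FPKM in each pool for 12 enzymes, with the 95% interval for counting error. Kmt5b and Suv39h1 have both BPA points above both controls, Sirt5 has both below, Ezh1 and Kdm4c lie in opposite order in the sexes, and the 4 Hdac genes have their highest point in female control.

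Enzymes of the H3K9 mark behaved unevenly. X-linked Suv39h1, which writes H3K9 trimethylation in pericentromeric chromatin, was at 7.58 and 8.57 FPKM in males and at 7.14 and 9.58 FPKM in females. Both BPA libraries lay above both controls, but the male ratio of 1.13 had an interval that included 1 (0.90 to 1.41), while the female ratio was 1.35 (1.08 to 1.68). The log2 fold change was 0.27 (SE 0.14, limma unadjusted p 0.0984, adjusted p 0.973). Its paralog Suv39h2 was at 2.32 FPKM in both male libraries and at 2.95 and 2.69 FPKM in the female ones. Ehmt1 (GLP), the partner of G9a, was at 28.4, 30.2, 27.9 and 28.9 FPKM, with log2 differences of 0.08 in males and 0.05 in females.

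Polycomb repressive complex 2 writes H3K27 methylation, and of its genes with an ID only Ezh1 had opposite orders of values in the sexes. Ezh2 and Eed had both BPA libraries above both controls, as 13.3% of genes with an ID did. Ezh2, the catalytic subunit in dividing cells, was at 10.8 and 14.4 FPKM in males, a ratio of 1.33 (interval 1.14 to 1.56). In the female libraries it was at 14.1 and 14.2 FPKM, a ratio of 1.01 (0.87 to 1.17). Male control alone was low, and the other 3 libraries lay together. The alternative catalytic subunit Ezh1, which prevails in cells that no longer divide, was at 7.35 and 9.5 FPKM in males, a ratio of 1.29 (1.10 to 1.52), but at 9.19 and 7.16 FPKM in females, a ratio of 0.78 (0.66 to 0.92). It was the only enzyme past 0.3 in opposite directions in the sexes, at 0.33 in males and -0.32 in females, and this difference between sexes has no replicate and was not tested. The scaffold Eed was at 7.94 and 9.49 FPKM in males and at 8.73 and 9.07 FPKM in females. The sum of dividing-cell markers was lower in BPA in both sexes, and its part in the Ezh2 values was not tested.

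Within a sex, BPA and control are 1 library each, so the counts of enzymes past an absolute log2 difference of 0.3 are descriptions. In males 4 enzymes were higher by at least this much (Ezh1, Ezh2, Kmt5b and Setd7), or 6.67% against 6.16% of genes with an ID, and 1 was lower (Kmt5c), or 1.67% against 7.20%. In females 2 were higher (Kmt5b and Suv39h1), or 3.33% against 5.68%, and 7 were lower (Ezh1, Hdac1, Hdac9, Hdac10, Hdac11, Kdm4c and Sirt5), or 11.7% against 14.9%. These shares are close to or below those of all genes. Past 1, no enzyme was found in either sex. The median difference was 0.06 in males and 0.0028 in females, against -0.0041 and -0.04 for all tested genes with an ID.

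**Figure D3:**
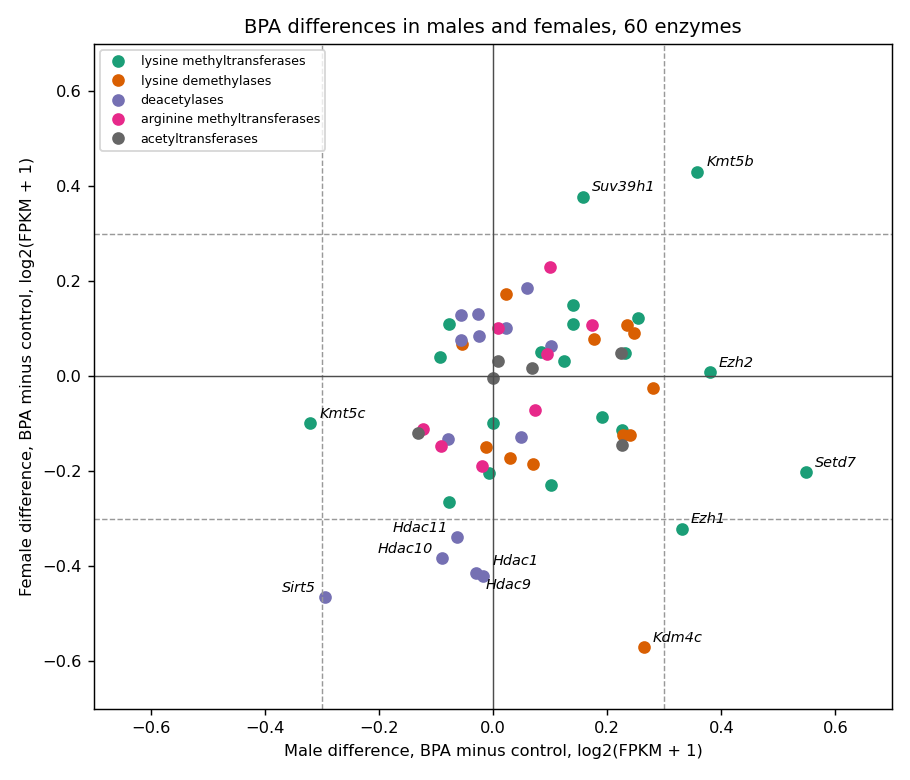
Difference between BPA and control in males (x axis) and females (y axis) in log2(FPKM + 1) for 60 enzymes, 1 point per gene, coloured by class, with dashed lines at 0.3 and -0.3. Kmt5b alone lies past 0.3 in the same direction in both sexes, Ezh1 lies past it in opposite directions, and 4 Hdac genes cluster near 0 in males and below -0.3 in females.

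Of the 9 zinc-dependent deacetylases, 4 were lower by more than 0.3 in female BPA, where 14.9% of genes with an ID were, and 0 in male BPA, where 7.20% were. Hdac1, Hdac9, Hdac10 and Hdac11 all had both BPA libraries below both controls, as 20.2% of genes with an ID did. Their male differences were -0.02, -0.03, -0.09 and -0.06, but their female differences were -0.42, -0.41, -0.38 and -0.34. In Hdac1 the female control library alone was high, at 20.5 FPKM against 15.0 to 15.7 in the other 3. Hdac9 showed instead a low female BPA library, at 20.6 FPKM against 25.7, 25.2 and 27.8 in male control, male BPA and female control. Hdac10 was at 8.48, 7.91, 9.77 and 7.26 FPKM and Hdac11 at 12.3, 11.8, 13.2 and 10.3 FPKM, with both extremes in females. The female control library is also the one high in meninges and vessel wall markers and lowest in the sum of hippocampal neuron markers. The part of these markers in the Hdac values was not tested, nor was the difference between the sexes. The log2 fold change over both sexes was -0.22 for Hdac1 (SE 0.15), -0.22 for Hdac9 (SE 0.13), -0.24 for Hdac10 (SE 0.14) and -0.20 for Hdac11 (SE 0.13), each with a limma adjusted p of 0.973. Without the female control library it was -0.04 for Hdac1, -0.17 for Hdac9 and -0.14 for Hdac10, and without the female BPA library it was -0.08 for Hdac9. The remaining zinc enzymes Hdac2, Hdac3, Hdac4 and Hdac8 had female differences of 0.06 to 0.13, and Hdac5 had -0.13. The median over the 9 zinc enzymes was -0.03 in males and -0.13 in females. Of the sirtuins other than Sirt5, Sirt2 had differences of -0.08 in males and -0.13 in females, at 61.5, 58.2, 54.8 and 49.95 FPKM, and Sirt3, Sirt4 and Sirt6 had differences of -0.06 to 0.06 in males and 0.10 to 0.19 in females.

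Of the 12 demethylases tested, 10 were higher in male BPA, with a median difference of 0.20, and 5 were higher in female BPA, with a median of -0.07, against medians of -0.0041 and -0.04 for all tested genes with an ID. No demethylase passed a test, and the difference between the sexes was not tested. The widest gap was that of Kdm4c, an H3K9 and H3K36 demethylase, at 6.11 and 7.54 FPKM in males but 8.19 and 5.19 FPKM in females. Its ratio was 1.23 in males (interval 1.01 to 1.51) and 0.63 in females (0.51 to 0.78). Kdm1a, the H3K4 demethylase LSD1, had both BPA libraries above both controls at 39.8, 47.0, 39.4 and 42.5 FPKM. So did Kdm4a at 41.7, 42.3, 39.4 and 44.6 FPKM and Kdm5b at 29.6, 33.6, 31.6 and 33.4 FPKM.

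Among the other lysine methyltransferases, Kmt2e (MLL5) had both BPA libraries above both controls, at 28.2 and 33.8 FPKM in males and 30.6 and 33.5 FPKM in females. Its log2 fold change was 0.19 (SE 0.11, limma adjusted p 0.973), and counting intervals lay above 1 in both sexes (1.13 to 1.27 and 1.03 to 1.16). The H3K36 trimethylase Setd2, at 17.6, 19.5, 18.9 and 20.5 FPKM, and Setd5, at 25.9, 28.6, 27.7 and 30.8 FPKM, likewise had both BPA libraries above both controls. Setd7, which methylates H3K4 and many other proteins, was at 3.60 and 5.73 FPKM in males and 3.37 and 2.80 FPKM in females. Only male BPA was high, on 97 fragments against 47 to 61 in the other libraries, so that the male ratio of 1.59 had the wide interval 1.14 to 2.23. The log2 fold change of Setd7 was 0.17 (SE 0.28) and turned to -0.24 without the male BPA library. Nsd1 was at 32.0, 34.9, 36 and 36.9 FPKM, Ash1l at 13.5, 15.5, 16.2 and 15.2 FPKM and Dot1l at 10.1, 10.9, 9.49 and 7.95 FPKM, and in none of them did the treatments separate.

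Class medians of acetyltransferases and arginine methyltransferases lay close to equality, at 0.03 each, but single members differed. Kat7, which acetylates H3K14 and H4, was at 28.0 FPKM in both male libraries and at 28.2 and 28.1 FPKM in the female ones. Crebbp was at 7.13 and 8.51 FPKM in males and 7.84 and 7.0 FPKM in females, with counting intervals on opposite sides of 1. Kat6a was at 17.2, 20.2, 18.6 and 19.3 FPKM, with both BPA libraries above both controls. The male ratio of Kat6a was 1.18 (interval 1.095 to 1.27). No member of either class was past 0.3 in a sex. Of the 8 arginine methyltransferases, Prmt1, Prmt6 and Prmt7 had both BPA libraries above both controls, as 13.3% of genes with an ID did. Prmt2, Prmt5 and Prmt8 had both below, as 20.2% of genes with an ID did. Log2 fold changes of the class ran from -0.12 to 0.17.

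Longer gene models had higher male differences. Across the 60 enzymes Spearman's rho of the male difference with length was 0.51, and -0.01 for the female difference. Over all 10857 tested genes with an ID the values were 0.13 and -0.11. Between the control libraries, female minus male, rho with length was 0.34 for the enzymes and 0.16 for genes with an ID. Between the BPA libraries it was -0.01 and -0.06. The male control library thus belongs to both pairs with a positive rho. With mean FPKM, the male difference had a rho of -0.32 for the enzymes and -0.02 for genes with an ID. All points of a rho share the same pair of libraries, so each describes 2 libraries. Of the 17 enzymes of at least 5000 bases, 15 were higher in male BPA (88.2%, median 0.18), against 57.5% of 1624 genes of this length (median 0.04). In females 10 of these 17 were higher (58.8%, median 0.05), against 31.9% (median -0.09). Of the 28 enzymes under 3000 bases, 12 were higher in male BPA, with a median of -0.02. Kmt2e, Kat6a, Crebbp, Kdm5a, Ash1l and Setd2 belong to the long group.

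**Figure D4:**
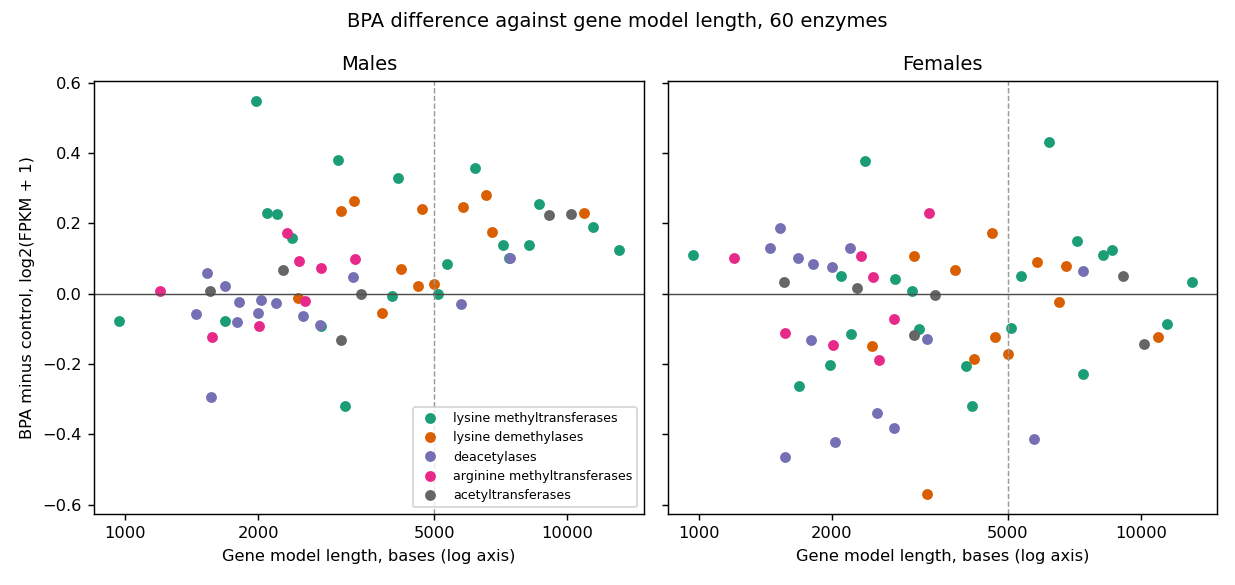
Difference between BPA and control in log2(FPKM + 1) against gene model length (log axis) for 60 enzymes, males on the left and females on the right, with a dashed line at 5000 bases. In males 15 of 17 enzymes right of the line lie above 0, and in females 10 of 17.

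The comparison of females with males asks about the other factor of the design. No enzyme passed an adjusted p under 0.05, with 0.00738% of all rows called in limma. At an unadjusted p under 0.05 there were 3 enzymes (5%), against 10.0% of genes with an ID. Both female libraries lay above both male libraries in 7 enzymes (11.7%, against 19.7%) and below both in 16 (26.7%, against 23.7%). The median log2 fold change was 0.01, against -0.01 for genes with an ID.

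All 3 of these enzymes were lower in females. Hdac5 was at 46.0 and 47.6 FPKM in males and 40.1 and 36.6 FPKM in females, a log2 fold change of -0.28 (SE 0.09, limma unadjusted p 0.0140, adjusted p 0.359). Sirt6, a deacetylase of telomeric chromatin and DNA repair, was at 33.3 and 33.8 FPKM in males and 26.4 and 28.4 FPKM in females, a log2 fold change of -0.29 (SE 0.09, unadjusted p 0.0151, limma adjusted p 0.359). Ehmt2 was at 78.5 and 78.1 FPKM in males and 68.8 and 59.6 FPKM in females, a log2 fold change of -0.29 (SE 0.09, unadjusted p 0.0169, limma adjusted p 0.370). In each of them the sexes did not overlap. Choroid plexus markers, given above, were also lower in both female libraries, and their part in these values was not tested. Over the alternatives the limma adjusted p was 0.201 to 0.956 for Hdac5, 0.203 to 0.956 for Sirt6 and 0.178 to 0.956 for Ehmt2. The log2 fold change was -0.35 to -0.22 for Hdac5, -0.34 to -0.23 for Sirt6 and -0.39 to -0.18 for Ehmt2.

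The widest sex differences were in weakly expressed enzymes. Setd7 differed by -0.45 (SE 0.24, limma adjusted p 0.551) and Sirt4 by -0.37 (SE 0.20, adjusted p 0.557 in limma). The value of Setd7 was -0.17 without the male BPA library and -0.72 without the male control library. Sirt4 was at 3.31 and 3.49 FPKM in males and 2.2 and 2.64 FPKM in females, on 28 to 45 fragments. In the other direction lay Suv39h2 (0.20), Prmt3 (0.18), Ezh2 (0.17), Hdac1 (0.16) and Setd4 (0.13), none with an adjusted p below 0.580. Without the male control library the value of Ezh2 was -0.020 and that of Setd4 0.013. Without the female control library that of Hdac1 was -0.049. The X-linked enzymes with a gene ID did not separate the sexes, since Hdac8 was at 6.34, 6.06, 6.30 and 6.70 FPKM and Suv39h1 overlapped as given above.

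Several enzymes of these families were present only as new gene models without a gene ID, matched by protein name and summed over the models of each protein. They stand outside the rule. The X-linked H3K4 demethylase Kdm5c, over 4 models, was at 24.1 and 25.9 FPKM in males and 33.4 and 30.6 FPKM in females, in the order control and BPA. The X-linked H3K27 demethylase Kdm6a (UTX), also over 4 models, was at 7.16 and 8.23 FPKM in males and 11.3 and 10.6 FPKM in females. In both, the sums of both female libraries lay above those of both male libraries, as 19.7% of genes with an ID did. Single models did not all follow. Kdm6a models at 0.73 and 1.35 FPKM in female control lay below both male libraries there. A Kdm5c model was at 7.91 FPKM in female BPA and 8.63 FPKM in male BPA. All other models of these genes had both female libraries above both male ones. In the fit with summed models Kdm5c was higher in females by 0.34 (SE 0.10, limma unadjusted p 0.00695, adjusted p 0.257) and Kdm6a by 0.46 (SE 0.14, unadjusted p 0.00912, limma adjusted p 0.283). Both genes are known to escape X inactivation. The Y-linked Kdm5d was listed in males only, at 7.45 and 9.12 FPKM over 3 models.

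**Figure D5:**
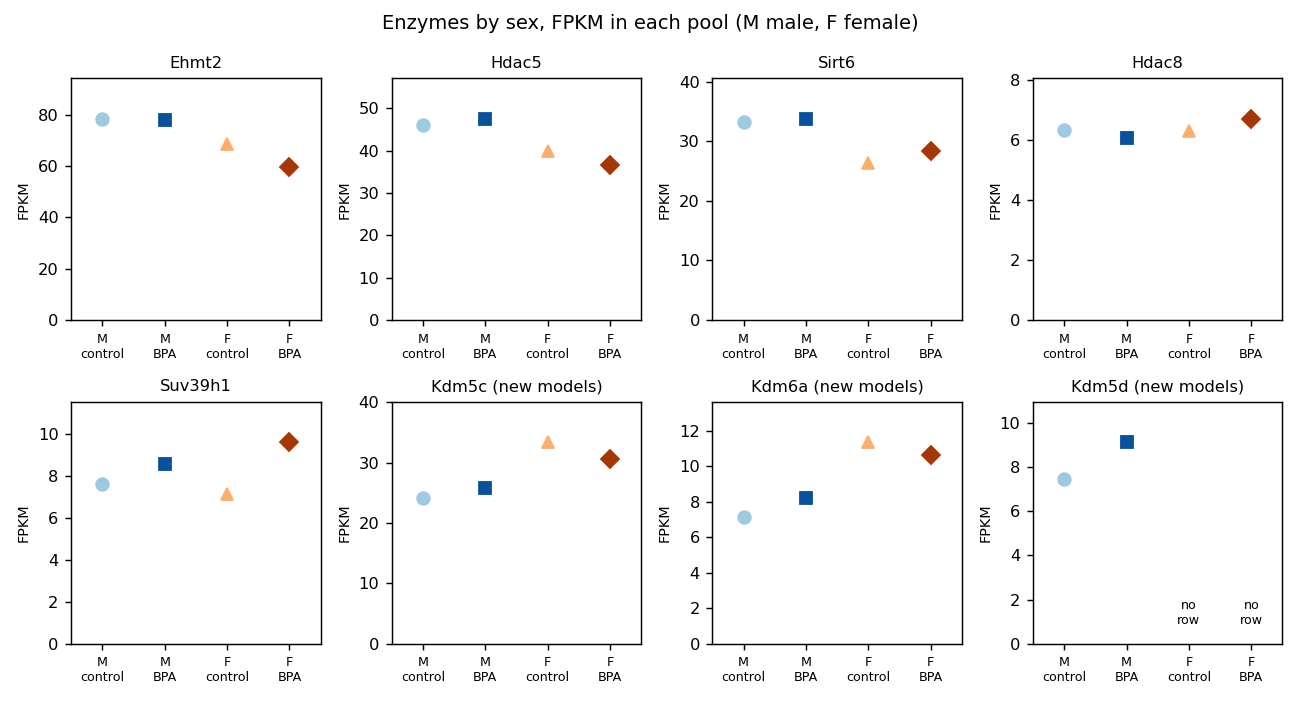
FPKM in each pool for 5 enzymes with a gene ID and 3 known from new gene models (Kdm5c, Kdm6a, Kdm5d, summed over models). Both female points of Ehmt2, Hdac5 and Sirt6 lie below both male points, both female points of Kdm5c and Kdm6a lie above them, and Kdm5d has no female row.

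The large H3K4 methyltransferases of the MLL family were likewise new models. Kmt2a was at 9.57 and 12.9 FPKM in males but at 11.3 and 10.8 FPKM in females, and Kmt2c at 9.17 and 14.1 FPKM in males and 12.8 and 11.5 FPKM in females. Kmt2b was at 9.70, 12.7, 9.34 and 9.96 FPKM and Kmt2d at 7.25, 9.03, 7.82 and 6.78 FPKM. Male BPA thus held the highest value in all 4, with male differences of 0.28 to 0.57 and female differences of -0.18 to 0.08. The limma adjusted p over both sexes was 0.965 to 0.990. All but a Kmt2c model of 1322 bases were at least 9370 bases long, in the length class with higher male differences. From male control to male BPA a Kmt2a model fell from 1.68 to 0.67 FPKM and a Kmt2d model from 4.24 to 1.73 FPKM. Kmt2c models fell from 1.75 to 0.31 FPKM and from 1.17 to 0.01 FPKM. All other models of these genes rose. The PRC2 subunit Suz12 was at 25.8, 26.9, 28.6 and 29.5 FPKM, the acetyltransferase Ep300 at 20.2, 21.1, 18.6 and 19.0 FPKM, and Sirt1, the best known sirtuin, at 5.07, 5.56, 5.71 and 7.66 FPKM. Kdm3b, an H3K9 demethylase found as a single model, separated the treatments at 1.62 and 7.89 FPKM in males and 2.28 and 6.3 FPKM in females. Its log2 fold change was 1.46 (limma adjusted p 0.410 with the models as listed, and 0.189 with models summed). With models summed and sex as a covariate the adjusted p was 0.00152, the lowest over the alternatives, and the highest was 0.895. No row was matched for Hdac6, Hdac7 or Kat2b, and Setd1a shares a row with Hsd3b7.

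Partners of the enzymes, 76 tested genes in 5 lists, held 0 genes called in limma for BPA at an adjusted p under 0.05. Only 1 had an unadjusted p under 0.05, Gps2 of the NCoR complex, which was higher in BPA. Of all tested genes with an ID, 3.86% passed this level. The median log2 fold change of the partners was 0.04. Acyl-lysine readers such as the Brd genes had the highest median (0.12), with 11 of 13 higher in BPA, followed by COMPASS subunits (0.08, 6 of 9), Polycomb partners (0.06, 12 of 20) and deacetylase complexes (0.04, 9 of 16). Further writers and erasers had -0.03, with 5 of 18 higher in BPA. Across all tested genes with an ID 45.0% were higher in BPA, and 63.3% of the 60 enzymes.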

How the data were processed

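The authors deposited 1 value per gene model and library in FPKM, to 2 decimals with a floor of 0.01, beside the gene model length. The submitters' processing notes name HISAT 0.1.6, Bowtie2 2.2.5, RSEM and the build rn6. The female and male files were joined by row name, leaving 16375 of 17445 rows in all 4 files. Fold changes were taken on log2(FPKM + 1), which understates changes of weakly expressed genes, and rows averaging below 1 were dropped. Comparisons of 2 against 2 libraries used limma 3.58.1 in R 4.3.3 (empirical Bayes with trend) without covariates and Benjamini-Hochberg adjustment over 13542 rows, checked on simulated data, where the share of false calls could exceed the nominal level and smaller changes were often missed. An exact permutation of 2 against 2 cannot go below a p of 0.333. Within a sex there is no test. Fragments were recovered from the steps of low values (96.0% to 98.9% whole within 0.15), and ratio intervals are exact binomial (Clopper-Pearson). New models were summed by protein match (2226 rows in 788 groups). Genes named are PRC2, all Hdac and Sirt, the sex-linked enzymes, Kmt2a, Crebbp, Ep300, Ash1l, Nsd1, Dot1l, the 3 highest and lowest per class, the 5 largest rises and falls per comparison, members with an unadjusted p under 0.05 and those past 0.3 in both sexes. Others named (Kmt5a, Ehmt1, Kdm4c, Kdm5b, Setd2, Setd5, Prmt7, Prmt8 and the further new models) were chosen after their values were seen. The members and lists were chosen with earlier results of these data known. Alternatives were a pseudocount of 0.1, quantile normalization, a filter at 5 or none, the other factor as a covariate, each library left out, summed models, and a fold threshold of 1.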

Additional observations from a re-analysis of the deposited data

Results flagged for a closer look

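The log2 difference of BPA from control in Ezh1 was 0.33 in males and -0.32 in females, opposite in sign, so that the female minus the male value was -0.65. The control libraries also differed, by 0.29 (female minus male), and the BPA libraries by -0.36. The difference was not tested, since each sex has 1 library per treatment.

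The new gene model matched to Kdm3b lies outside the rows with a gene ID and separated BPA from control by a log2 fold change of 1.46, with both BPA libraries above both controls. It rests on protein name matching and on a single model.

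Sirt7 entered no comparison, because the female files do not list it. It was at 1.52 FPKM (22 fragments) in male BPA and 0 fragments in male control, where a count of 0 allows up to 3.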

How the results depend on the processing

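No enzyme was called under any of the alternatives in either comparison, and an unadjusted p under 0.05 gave 2 enzymes for BPA and 3 for sex. Of all rows, BPA against control called 0, and 2 with sex as a covariate, 0 to 3 with a library left out (1 without male BPA and 3 without female control) and 637 at an unadjusted p under 0.05, of which 216 were higher and 421 lower (284 and 341 after quantile normalization). Females against males called 1 row, and 21 with a mean of at least 5, 55 with treatment as a covariate, 20 with models summed, 1 to 2 with a library left out and 1442 at an unadjusted p under 0.05 (526 higher and 916 lower, and 724 and 846 after quantile normalization). With a fold threshold of 1, the counts of 5 enzymes in males and 9 in females became 0 and 0. Leaving out a library, chosen after seeing the data, moved the enzymes with all BPA above all control libraries from 15 to between 22 and 30 of 60 (27.5% to 30.1% of genes with an ID), those below from 10 to between 15 and 21 (33.5% to 40.7%), those with all female above all male libraries from 7 to between 9 and 22 (31.4% to 39.2%), and those below from 16 to between 19 and 29 (34.6% to 43.6%), as fewer libraries overlap less. With a library left out, the BPA fold change of Setd7 was -0.24 to 0.59, and the sex fold change was -0.020 to 0.36 for Ezh2 and -0.049 to 0.37 for Hdac1. The other 219 of 222 values for single genes kept their direction. The Kdm3b model passed an adjusted p under 0.05 with sex as a covariate and without either control library, in the fit with summed models. The median of the enzymes was -0.0043 to 0.07 for BPA and -0.05 to 0.03 for sex. The labels give no replicate numbers, and the fit with sex as a covariate is the one that pairs control and BPA within a sex. The lowest tested enzymes rested on few fragments (28 to 45 per library for Sirt4), so that small differences were not detectable there.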
